A study of Mus musculus with 9 samples.

Results

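The 3 D cyclin genes (Ccnd1, Ccnd2, Ccnd3) and 7 genes for inhibitors of cyclin-dependent kinases (Cdkn1a, Cdkn1b, Cdkn1c, Cdkn2a, Cdkn2b, Cdkn2c, Cdkn2d) were examined in sorted Comma-1D cells, a mouse mammary epithelial cell line. Members were taken by gene symbol, through the Ensembl identifier of each deposited row, and make up 10 of the 54281 genes listed. D cyclins bind the kinases CDK4 and CDK6, and the active complexes phosphorylate the retinoblastoma protein, which releases E2F factors and lets a cell pass from G1 into S phase. The INK4 inhibitors (Cdkn2a to Cdkn2d) bind CDK4 and CDK6 and keep D cyclins off them, whereas the CIP/KIP inhibitors (Cdkn1a, Cdkn1b, Cdkn1c) bind cyclin-CDK complexes and block CDK2 complexes most strongly. In the mammary gland cyclin D1 is known for its part in lobuloalveolar growth and in tumours driven by ERBB2.

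RNA was sequenced from 9 libraries, 1 for each combination of 3 sorted populations with 3 arms. Population B had high Sca-1 and low EpCAM, population L had low Sca-1 and high EpCAM, and population bi had both markers high. The arms were control cells, cells transduced with an activated MYC oncogene and cells transduced with an activated Her2 oncogene, and all were grown in medium with fetal calf serum, murine EGF and human insulin. The labels do not say whether the controls carried a vector, whether the arms or populations came from separate cultures, or which species the transgenes came from, so the p-values measure only the spread between these 9 libraries. Levels are given as CPM, read counts relative to library size after TMM scaling between libraries, on depths of 46.9 to 98.9 M reads per library. An effect of an oncogene is the average over the 3 populations and an effect of population the average over the 3 arms, 3 libraries against 3, as a log2 fold change with its standard error (SE) from edgeR's quasi-likelihood test. The threshold for a call was an adjusted p of 0.05 (Benjamini-Hochberg over all 23834 genes tested), and all 10 members passed the filter on low counts.

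The marker genes of the sort and of the arms matched the labels in each population. Epcam was at 0.183 to 0.764 CPM in the B libraries and at 252 to 610 CPM in the others. Ly6a (Sca-1) was lowest in L, at 2.37 to 12.8 CPM, against 19.5 to 112 in B and 15.9 to 139 in bi. The lowest B and bi libraries, both with Her2, were thus close to the highest L library. Myc was highest in the MYC library of each population (188 to 285 CPM) and Erbb2 in the Her2 library (189 to 651 CPM). Markers of basal epithelium were present in all 9 libraries, with a summed level of 1620 to 5260 CPM over 6 genes, of which Myh11 was at most 0.245 CPM, whereas luminal markers were low in B. Leukocyte (2.91 to 8.86 CPM) and endothelial markers (1.83 to 5.51 CPM) were low throughout.

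Promoter sequences are shown for 3 members with a matched entry on which later results turn, 300 bases each (250 before to 50 after the start site, 5′ to 3′ on the gene's strand), from RefSeq on GRCm38.p6, the build of these files (mm10). Cdkn1a has the widest range of the 10 genes, Cdkn2a makes both of its products from separate start sites within a single counted gene, and Cdkn2c differed in deposited transcript length between populations. Capitals mark a match of letters to a p53 response element in the upstream Cdkn1a promoter (chr17:29090729-29091028, plus strand), a pair of consensus half-sites with the bases between them. They also mark an E2F motif (TTTCCCGC) in the upstream Cdkn2a promoter that serves p19Arf (chr4:89294570-89294869, minus strand). In the downstream Cdkn2c promoter (chr4:109665323-109665622, minus strand) they mark an E-box (CACGTG). The downstream Cdkn2a promoter, which serves p16Ink4a (chr4:89282143-89282442, minus strand), and the upstream Cdkn2c promoter (chr4:109666707-109667006, minus strand) are shown without capitals since they hold none of these 3 motifs. The downstream Cdkn1a promoter (chr17:29093519-29093818, plus strand) also holds none of them and is not printed. Annotated coding transcripts of Cdkn1a start at both of its promoters, and the count sums them.
Cdkn1a, upstream: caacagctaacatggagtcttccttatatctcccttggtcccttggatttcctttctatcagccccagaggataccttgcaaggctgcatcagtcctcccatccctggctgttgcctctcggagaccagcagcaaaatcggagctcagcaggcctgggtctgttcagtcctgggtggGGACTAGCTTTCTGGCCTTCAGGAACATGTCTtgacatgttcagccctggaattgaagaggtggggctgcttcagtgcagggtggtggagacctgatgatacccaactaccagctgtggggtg
Cdkn2a, upstream: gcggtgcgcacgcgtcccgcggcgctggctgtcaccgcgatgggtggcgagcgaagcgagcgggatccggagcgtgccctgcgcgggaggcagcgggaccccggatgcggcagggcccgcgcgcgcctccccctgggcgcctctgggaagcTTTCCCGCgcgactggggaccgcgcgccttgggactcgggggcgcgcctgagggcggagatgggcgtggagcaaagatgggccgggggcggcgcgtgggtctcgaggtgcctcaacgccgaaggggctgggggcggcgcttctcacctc
Cdkn2a, downstream: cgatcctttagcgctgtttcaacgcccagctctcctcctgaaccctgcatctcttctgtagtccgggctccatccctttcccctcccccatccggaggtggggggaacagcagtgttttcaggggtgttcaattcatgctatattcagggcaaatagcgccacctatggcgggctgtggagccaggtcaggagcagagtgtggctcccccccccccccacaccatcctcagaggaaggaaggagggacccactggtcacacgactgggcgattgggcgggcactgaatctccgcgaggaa
Cdkn2c, upstream: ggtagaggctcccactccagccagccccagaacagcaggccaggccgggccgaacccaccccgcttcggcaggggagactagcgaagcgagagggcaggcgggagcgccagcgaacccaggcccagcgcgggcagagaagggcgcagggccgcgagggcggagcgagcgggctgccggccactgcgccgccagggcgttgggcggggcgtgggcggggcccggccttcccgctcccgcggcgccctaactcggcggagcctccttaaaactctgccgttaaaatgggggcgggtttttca
Cdkn2c, downstream: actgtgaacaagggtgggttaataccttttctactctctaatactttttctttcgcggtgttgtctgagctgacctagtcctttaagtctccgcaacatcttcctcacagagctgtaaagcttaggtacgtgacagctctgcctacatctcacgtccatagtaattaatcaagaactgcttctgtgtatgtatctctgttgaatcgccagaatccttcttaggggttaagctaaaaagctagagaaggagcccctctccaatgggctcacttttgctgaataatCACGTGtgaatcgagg

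Of the 10 members, 7 matched the RefSeq promoter table, with 11 promoters among its 32851. A match to a p53 response element, searched as a pair of consensus decamers 0 to 13 bases apart on both strands, was present in 0.0731% of all promoters. It was present in 1 of the 11, that of upstream Cdkn1a, where the match begins 73 bases before the start site. The bases directly after that match differ from a consensus decamer only in the first base. The search allowed no mismatch, so the marked stretch may not be the bounds of the element. The E2F motif TTTCCCGC was present in 1.07% of promoters and in 1 of the 11, 99 bases before the p19Arf start site. The E-box CACGTG was present in 7.15% and in 1 of the 11, that of downstream Cdkn2c, where it lies after the start site, from base 35. The AP-1 motif TGANTCA was present in 7.81% and in none of the 11. The GC box GGGCGG was present in 35.7% of all promoters and in 9 of the 11. These are matches of letters on either strand and no binding was measured here.

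Per unit of transcript length (deposited TPM), Ccnd1 was the most abundant member, with a mean of 178 TPM over the 9 libraries (range 51 to 381). Ccnd2 followed at 89.1 TPM (55.7 to 115) and Cdkn2a at 84.3 TPM (62.1 to 126). Cdkn1b had a mean of 32.3 TPM, Ccnd3 26.7, Cdkn1a 21.7, Cdkn2c 17.1, Cdkn2b 13.2 and Cdkn2d 7.27. Cdkn1c was the least abundant at 0.892 TPM (0.16 to 2.14). For 5 members (Ccnd3, Cdkn1a, Cdkn1b, Cdkn1c and Cdkn2d) the deposited lengths were below every transcript of the gene in the annotation used here, as with 215.1 to 271.7 bases for Ccnd3 and 1296 to 1342 for Cdkn1b. The order therefore depends on the authors' transcript set.

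**Figure D1:**
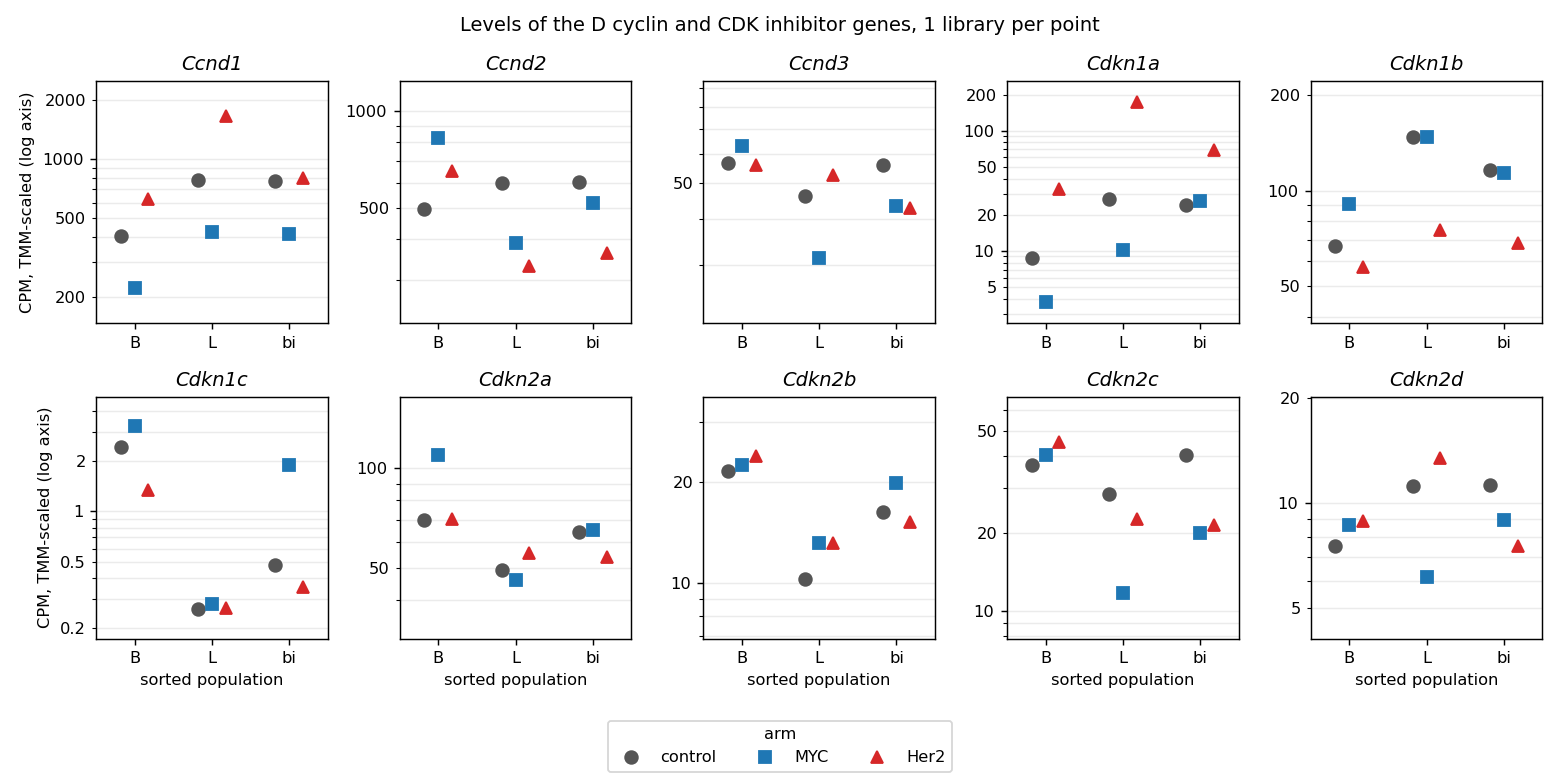
Level of each of the 10 genes in each of the 9 libraries, as TMM-scaled CPM on a log axis with its own range per gene, by sorted population (x axis) and arm (marker). Each point is 1 library. Cdkn1a spans 3.77 to 173 CPM and is highest in the Her2 library of every population, Ccnd1 is lowest in the MYC library of every population, and Cdkn1c, Cdkn2a and Cdkn2b lie higher in all 3 B libraries than in all 3 L libraries.

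The 10 genes differed widely in how much they varied. Cdkn1a had the widest range, 45.9-fold between its highest and lowest library, followed by Cdkn1c with 12.5-fold and Ccnd1 with 7.56-fold. The other 7 members ranged from 2-fold (Ccnd3) to 3.87-fold (Cdkn2c). Among 10753 genes of at least 5 CPM on average the median range was 2.05-fold, 2.81% were wider than Cdkn1a and 9.09% wider than Ccnd1. For 3 members the arm took the largest part of the variance of log2 CPM over the 9 libraries, namely Cdkn1a (60.9%), Ccnd1 (59.6%) and Cdkn1b (51.8%). Population took most for Cdkn2b (87.4%), Cdkn1c (76.3%), Cdkn2a (67.2%), Cdkn2c (52.1%) and Ccnd3 (45.1%), so that 3 of the 4 INK4 genes varied more with the sorted population than with the arm. For Cdkn2d 71.4% lay in neither. The medians over all tested genes were 33.5% for population, 20.6% for arm and 31.6% for the rest.

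Cells with MYC and cells with Her2 differed in 3 members. Ccnd1 was 353 CPM in the MYC arm and 1030 CPM in the Her2 arm, Cdkn1a 13.3 and 91.6 CPM, and Cdkn1b 118 and 66.9 CPM (means of 3 libraries). Cyclin D1 and p21 transcripts were thus lower with MYC than with Her2, and p27 transcripts higher. These were the 3 called members, 1 higher and 2 lower, where 4.57% of all tested genes were called, 2.44% higher and 2.13% lower. Of the 10 members, the same 3 had libraries of the arms that did not overlap, against 13.8% of all genes. The calls and the overlap rest on the same libraries.

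Against control, neither oncogene gave a call among the members in edgeR's test. For MYC this was 0 of 10 (0.365% of all genes were called), with Ccnd1 and Cdkn2c the 2 members at an unadjusted p under 0.05, a level that 13.9% of all genes reached. DESeq2 and limma each called 1 member, Ccnd1, where they called 5.15% and 2.56% of all genes. For Her2 it was also 0 of 10 (0.021% of all genes), with Cdkn1a, Cdkn1b and Ccnd1 the 3 members at an unadjusted p under 0.05 (8.8% of all genes), while DESeq2 called 1, Cdkn1a (2.42% of all genes), and limma 0 (0% of all genes). The comparison of MYC with control and that of Her2 with control share the control libraries.

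Population L differed from population B in 7 members, where 20.8% of all genes were called. Ccnd1, Cdkn1a and Cdkn1b were the 3 higher in L (11.5% of all genes), and Cdkn1c, Cdkn2a, Cdkn2b and Cdkn2c the 4 lower (9.26%). The 3 called INK4 genes and Cdkn1c were therefore higher in B than in L, populations that differ in both Sca-1 and EpCAM. In 5 members the libraries of L and B did not overlap (Ccnd3, Cdkn1c, Cdkn2a, Cdkn2b, Cdkn2c), against 32.2% of all genes. The median log2 fold change was -0.54 over the members and 0.04 over all tested genes.

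Population bi differed from B in 2 members, Cdkn1a higher and Cdkn1c lower, where 13% of all genes were called (7.88% higher, 5.11% lower). The libraries did not overlap for Ccnd3, Cdkn2a and Cdkn2b, against 25.2% of all genes. Between bi and L, 0 of 10 members were called by edgeR (0.751% of all genes), and DESeq2 and limma also called 0 (3.08% and 0.105% of all genes). At an unadjusted p under 0.05 were 2 of them, Cdkn2b and Cdkn1c (8.65% of all genes), and these were the 2 without overlap, against 9.87%. In all 6 comparisons there were 12 calls in 7 members, and Ccnd2, Ccnd3 and Cdkn2d had none.

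**Figure D2:**
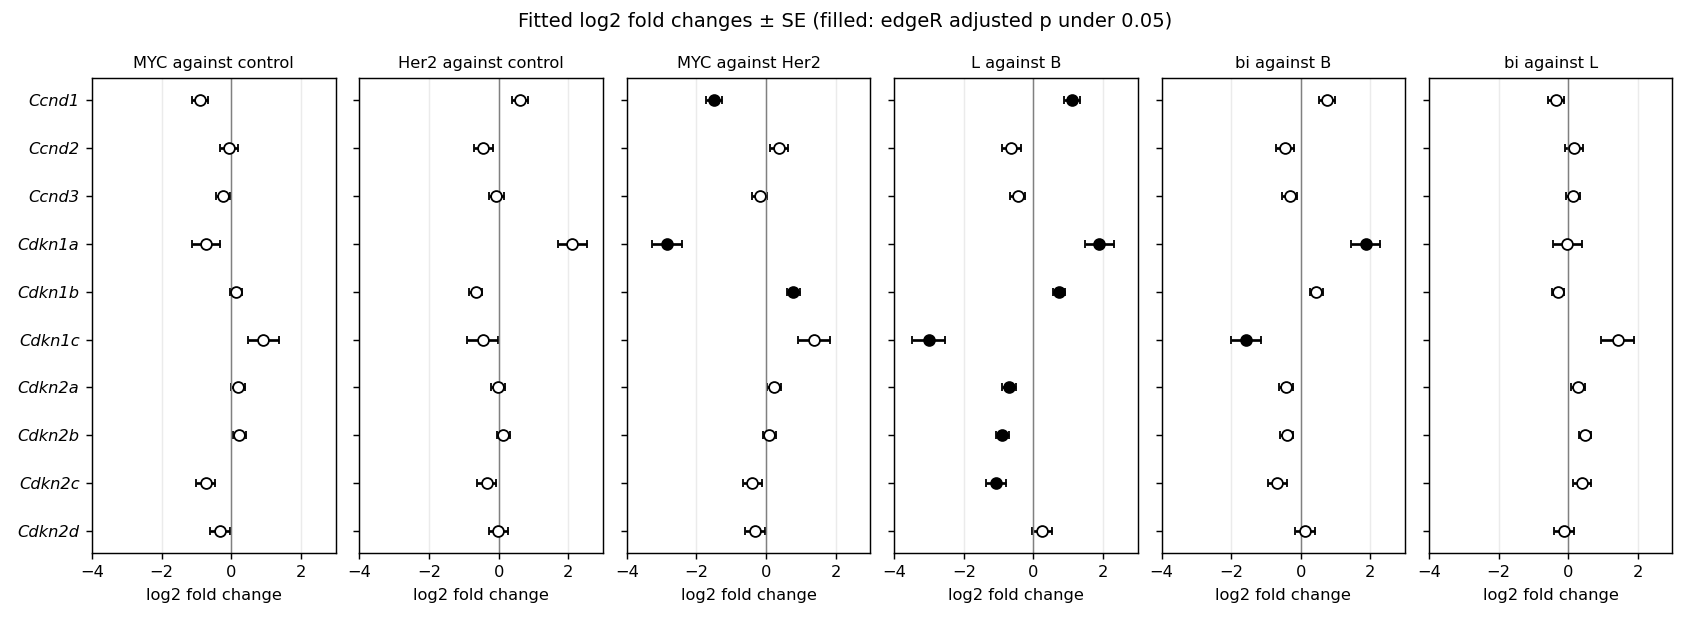
Log2 fold change of each member in each of the 6 comparisons, with its SE as bars. Filled points passed an adjusted p under 0.05 in edgeR's test: 3 in MYC against Her2, 7 in L against B and 2 in bi against B.

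Ccnd1 (chr7:144929931-144939925, minus strand) encodes cyclin D1. In B its level was 407 CPM in control, 220 with MYC and 626 with Her2. In L it was 782, 424 and 1660 CPM, and in bi 777, 416 and 802 CPM, in the same order. The MYC library was the lowest of its population in all 3 and the Her2 library the highest, although in bi Her2 and control were close. Between MYC and Her2 the log2 fold change was -1.50 (SE 0.23, edgeR adjusted p = 0.01), and it ran from -1.75 to -1.31 over all alternatives tried.

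The ratio of the MYC to the control library, a value of 1 library against 1, was nearly the same in each population for Ccnd1: a log2 ratio of -0.89 in B, -0.88 in L and -0.90 in bi. The average of -0.89 (SE 0.23) missed the threshold with edgeR (adjusted p = 0.112). It passed without a filter on low counts (0.00819), with DESeq2 (0.021), with limma on TPM (0.0246) and when only the 6 libraries of these arms were fitted (0.0364). With Her2 the ratios were 0.62 in B, 1.09 in L and 0.05 in bi (average 0.61, SE 0.23, adjusted p = 0.438).

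Ccnd1 was higher in L than in B by 1.12 on the log2 scale (SE 0.23, edgeR adjusted p = 0.0069), at 955 ± 636 against 417 ± 203 CPM (SD, n = 3), and the libraries of the populations overlapped. Within each arm L was above B, by 0.94 in control, 0.95 with MYC and 1.41 with Her2. Without the L Her2 library, the highest of all, the difference was 0.88 (adjusted p = 0.0203). For bi against B the log2 fold change was 0.76 (SE 0.23, adjusted p = 0.0551). It passed in 7 of 14 alternatives. These were without the L MYC library (0.0461), without L Her2 (0.0233), without bi Her2 (0.0209), with DESeq2 (0.0402), with limma (0.021), without a filter and on the 6 libraries alone. In the other 7 it did not pass, with an edgeR adjusted p of up to 0.239 when 1 library was left out.

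Ccnd2 (chr6:127125162-127152193, minus strand) encodes cyclin D2. Its level in B was 498 CPM in control, 827 with MYC and 654 with Her2. In L it was 599, 390 and 330 CPM, and in bi 603, 518 and 363 CPM. Both oncogene libraries thus lay above the control in B and below it in L and bi. The log2 ratio of MYC to control was 0.73 in B, against -0.62 in L and -0.22 in bi, and that of Her2 to control 0.39, -0.86 and -0.73. Whether populations differ in this could not be tested with 1 library each. No average effect was called, with -0.07 (SE 0.26, adjusted p = 0.951) for MYC and -0.44 (SE 0.26, adjusted p = 0.767) for Her2.

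The control libraries of the 3 populations held similar Ccnd2, 498 to 603 CPM, while with MYC and with Her2 L was below B by log2 ratios of -1.08 and -0.99. The average of L against B was -0.63 (SE 0.27, edgeR adjusted p = 0.132). It passed without the B control library (adjusted p = 0.00827), and so did bi against B (-0.46 with all libraries, adjusted p = 0.316, against 0.0265 without that library).

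Ccnd3 (chr17:47505051-47599691, plus strand) encodes cyclin D3 and varied least. It stood at 56.6, 62.8 and 55.8 CPM in B (control, MYC, Her2), 46.1, 31.4 and 52.4 in L, and 55.8, 43.2 and 42.9 in bi. Every L library was below every B library, with log2 ratios of -0.09 with Her2 and -0.998 with MYC, and the average of -0.46 (SE 0.21) had an adjusted p of 0.163 with edgeR and 0.0281 with limma on TPM. Exons of Ccnd1, Ccnd2, Ccnd3, Cdkn1a and Cdkn1c overlap exons of genes on the opposite strand (LTO1 for Ccnd1, Bysl for Ccnd3). The library kit keeps strand but the strand setting of the counting is not given in the sources used here, so reads of such partners cannot be told apart if strand was not used.

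**Figure D3:**
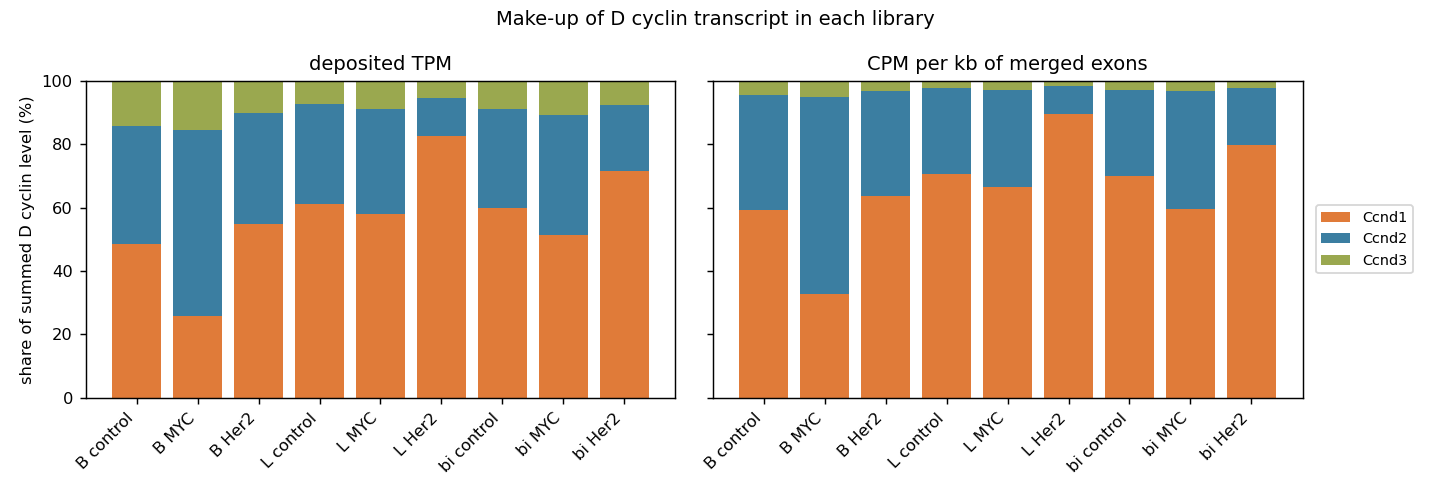
Share of each D cyclin in the summed D cyclin level of each library, in percent, from deposited TPM (left) and from CPM per kb of merged exons (right). Each bar is 1 library and adds to 100. Ccnd1 holds the largest share in 8 of the 9 libraries on both scales, and Ccnd2 in B MYC.

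The make-up of D cyclin transcript, compared per length, shifted between libraries. By TPM, Ccnd1 made up 48.6% of the summed D cyclins in the B population's control library, 25.9% with MYC and 54.9% with Her2. In L its share was 61.3%, 58.1% and 82.7%, and in bi 59.9%, 51.3% and 71.5%. In each population it was lowest with MYC and highest with Her2, and Ccnd2 ran from 58.7% in B MYC down to 12.1% in L Her2. On CPM per kb of merged exons the Ccnd1 share ran from 32.9% (B MYC) to 89.6% (L Her2), in the same libraries. The share of Ccnd3 depended on the length used, 5.24% to 15.4% by TPM and 1.52% to 5.05% per kb of merged exons. The summed TPM of the 3 genes was 251, 197 and 304 in B (control, MYC, Her2), 357, 214 and 461 in L, and 338, 195 and 322 in bi, lowest with MYC in every population.

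Cdkn1a (chr17:29090976-29100727, plus strand) encodes p21, a p53 target that inhibits CDK2 complexes. In B it was 8.75 CPM in control, 3.77 with MYC and 32.8 with Her2. In L it was 27.3, 10.2 and 173 CPM, and in bi 24.1, 26.1 and 68.6 CPM. The Her2 library was the highest of its population in all 3, and every Her2 library lay above all 6 control and MYC libraries, B Her2 narrowly so. Between MYC and Her2 the log2 fold change was -2.84 (SE 0.44, edgeR adjusted p = 0.00995), with single-library ratios of -3.11 in B, -4.09 in L and -1.39 in bi. The call held in all 14 alternatives, with values from -3.52 (without bi MYC) to -2.35 (without L MYC).

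Against control, Cdkn1a was higher with Her2 by 2.12 (SE 0.41), at 91.6 ± 73.0 against 20 ± 9.9 CPM (SD, n = 3 libraries), and the groups did not overlap (6.6% of all genes). The edgeR adjusted p was 0.1, so this did not pass. It passed without the L MYC library (0.0487), without bi MYC (0.0442) and without bi Her2 (0.0431), with DESeq2 (6.48e-06), without a filter (7.04e-05) and on the 6 libraries alone (0.00517), and ranged from 0.0431 to 0.41 when 1 library was left out. The ratio was largest in L (2.67), against 1.90 in B and 1.51 in bi. Erbb2 reads, which may include the transgene, were also highest in L Her2, at 651 CPM against 189 in B Her2 and 235 in bi Her2. Its part in the Cdkn1a level was not tested. With MYC the ratio to control was -1.21 for B, -1.42 for L and 0.11 for bi (average -0.73, SE 0.41, adjusted p = 0.485).

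Cdkn1a was higher in L than in B in every arm, with log2 ratios of 1.63 in control, 1.42 with MYC and 2.40 with Her2. The average was 1.90 (SE 0.41, edgeR adjusted p = 0.00954) and 1.38 (adjusted p = 0.0386) without L Her2. It was also higher in bi than in B, by 1.87 (SE 0.42, adjusted p = 0.0168). That call was lost without B MYC (adjusted p = 0.0865) or B Her2 (0.0557), and the value was 1.22 (adjusted p = 0.0322) without bi MYC. In bulk RNA of a sorted population, more cells that express a gene and more transcript per cell cannot be told apart.

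Cdkn1b (chr6:134920401-134925513, plus strand) encodes p27, which is best known as an inhibitor that accumulates in resting cells. In B it was 67.0 CPM in control, 90.8 with MYC and 57.3 with Her2. In L it was 148, 148 and 75.2 CPM, and in bi 116, 114 and 68.2 CPM. The Her2 library was the lowest of each population, and in L and bi the MYC and control libraries were nearly equal. MYC was above Her2 by 0.79 (SE 0.18, edgeR adjusted p = 0.0394). This call was lost with the size factors of DESeq2 (0.0548), with limma (0.0838) and when B MYC (0.114), L control (0.0616), L MYC (0.126), L Her2 (0.226), bi control (0.0599), bi MYC (0.153) or bi Her2 (0.103) was left out.

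Against control, Cdkn1b with Her2 gave log2 ratios of -0.23 in B, -0.97 in L and -0.77 in bi, an average of -0.66 (SE 0.18) that was not called (adjusted p = 0.239, and 0.143 to 0.847 over the alternatives). It was higher in L than in B by 0.74 (SE 0.18, edgeR adjusted p = 0.0167). That call was lost without B MYC (0.0576), L control (0.108) or L MYC (0.0569). The L over B ratio was 1.14 in control, 0.71 with MYC and 0.39 with Her2.

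Cdkn1c (chr7:143458339-143461050, minus strand) encodes p57, an imprinted member of the family, and was low throughout. It had 136, 142 and 70 reads in B (control, MYC, Her2), or 2.42, 3.25 and 1.34 CPM. In L it had 20, 22 and 18 reads, or 0.26, 0.279 and 0.264 CPM. In bi it had 45, 97 and 31 reads, or 0.48, 1.91 and 0.355 CPM. All L libraries thus lay below all others, and bi MYC stood apart from the other bi libraries.

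Cdkn1c was lower in L than in B by -3.01 on the log2 scale (SE 0.47, edgeR adjusted p = 0.00171) and the call held in all 14 alternatives, with -1.53 on the log2(TPM + 0.5) scale of limma, which understates changes of low genes. The call for bi against B (-1.58, SE 0.44, adjusted p = 0.0416) was lost with limma (0.162) and without B control (0.108), B MYC (0.0931), B Her2 (0.0849), L control (0.0581), bi control (0.18) or bi Her2 (0.146), and its value was -2.21 (0.0173) without bi MYC. Between MYC and Her2 it was 1.39 (SE 0.46, adjusted p = 0.128, and 0.0333 with DESeq2). Fibroblast markers (7 genes, none at 0 throughout) were also highest in B, with summed levels of 84.5 to 149 CPM against 18.1 to 19.9 in L and 22.7 to 38.5 in bi, and luminal markers (6 genes) lowest, 2.51 to 5.8 CPM against 594 to 2220 in L and 288 to 427 in bi. Of the fibroblast markers Lum was at most 0.075 CPM in any library. Pdgfra was the largest part of the B sums (52.2 to 102 CPM) and lower in L (13.8 to 14.4). Col3a1 overlapped between B (0.0192 to 0.87 CPM) and L (0.0733 to 1.24). Col1a1 was at 36.3 CPM in B control but at 4.73 in B MYC and 2.37 in B Her2. The summed basal markers, mostly Krt5 and Krt14, overlapped (1770 to 3770 CPM in B and 1620 to 3650 in L). Trp63 (430 to 747 CPM in B and 121 to 357 in L) and Acta2 (15.5 to 262 and 1.33 to 12.3 CPM) were higher in every B library than in every L library. Krt14 (758 to 1470 CPM in B and 587 to 1130 in L) and Oxtr (0.573 to 15.7 and 0.393 to 5.4 CPM) overlapped. Krt5 was higher in L than in B in control (2150 against 1420 CPM) and with Her2 (994 against 569), and lower with MYC (797 against 1330). The part of what these fibroblast, luminal and basal markers show in the differences between L and B, for Cdkn1c as for the INK4 genes, was not tested.

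Cdkn2a (chr4:89274471-89294653, minus strand) encodes p16Ink4a and, in another reading frame from an upstream start, p19Arf, which stabilises p53 by binding MDM2. The count sums both products. In B it was 69.9 CPM in control, 110 with MYC and 70.1 with Her2. In L it was 49.1, 45.8 and 55.5 CPM, and in bi 64.0, 65.3 and 54.1 CPM. B MYC stood out as the highest library, and every L library was below every B library. The deposited lengths of 840.2 to 864.6 bases lie near both annotated transcripts, of 852 (p16Ink4a) and 895 bases (p19Arf), and do not separate the products.

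Cdkn2a was lower in L than in B by -0.70 (SE 0.20, edgeR adjusted p = 0.0359). The call was lost on the 6 libraries alone (0.0627) and without B MYC (0.184), L control (0.115), L MYC (0.182) or bi MYC (0.0608). The ratio of MYC to control was 0.65 in B but -0.10 in L and 0.03 in bi, and the average was 0.21 (SE 0.20, adjusted p = 0.739). With Her2 it was -0.02 (SE 0.20, adjusted p = 0.998), with ratios of 0.18 in L and -0.24 in bi.

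Cdkn2b (chr4:89306299-89311039, minus strand), the adjacent gene, encodes p15Ink4b, known for its induction by TGF-beta. It was 21.5, 22.4 and 23.8 CPM in B (control, MYC, Her2), 10.3, 13.2 and 13.2 in L, and 16.3, 19.8 and 15.2 in bi. The 3 populations did not overlap, with B highest, bi between and L lowest, and each group was tight (22.6 ± 1.18, 17.1 ± 2.41 and 12.2 ± 1.65 CPM, SD, n = 3). Of all genes, 32.2% did not overlap between L and B, 25.2% between bi and B and 9.87% between bi and L. The share with all 3 populations apart in level was not counted. L against B was -0.89 (SE 0.18, edgeR adjusted p = 0.00702), which held in 13 of 14 alternatives and was 0.0585 without L control. Between bi and L the log2 fold change was 0.48 (SE 0.18, adjusted p = 0.414) and between bi and B -0.41 (SE 0.18, adjusted p = 0.187). Of the genes next to the pair, Mtap, a methylthioadenosine phosphorylase, ran from 72 (L MYC) to 207 CPM (B Her2) and had no call (L against B -0.49, SE 0.19, adjusted p = 0.106), and Dmrta1 stayed at 0.154 to 0.566 CPM.

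Cdkn2c (chr4:109660876-109667189, minus strand) encodes p18Ink4c, which is known to restrain luminal progenitor growth in the mouse mammary gland. In B it was 36.9 CPM in control, 40.3 with MYC and 45.3 with Her2. In L it was 28.5, 11.7 and 22.7 CPM, and in bi 40.4, 20 and 21.6 CPM. Both oncogene libraries were below the control in L and bi and above it in B. The log2 ratio of MYC to control was 0.13 for B, -1.28 for L and -1.01 for bi (average -0.74, SE 0.28, adjusted p = 0.265), and that of Her2 0.30, -0.33 and -0.90.

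Cdkn2c was lower in L than in B by -1.07 (SE 0.28, edgeR adjusted p = 0.0221), most in the MYC arm (-1.78, against -0.37 in control and -0.99 with Her2). The call was lost without B MYC (0.108), B Her2 (0.084) or L MYC (0.109). For bi against B it was -0.67 (SE 0.28, adjusted p = 0.153), and it passed without B control (0.0215).

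**Figure D4:**
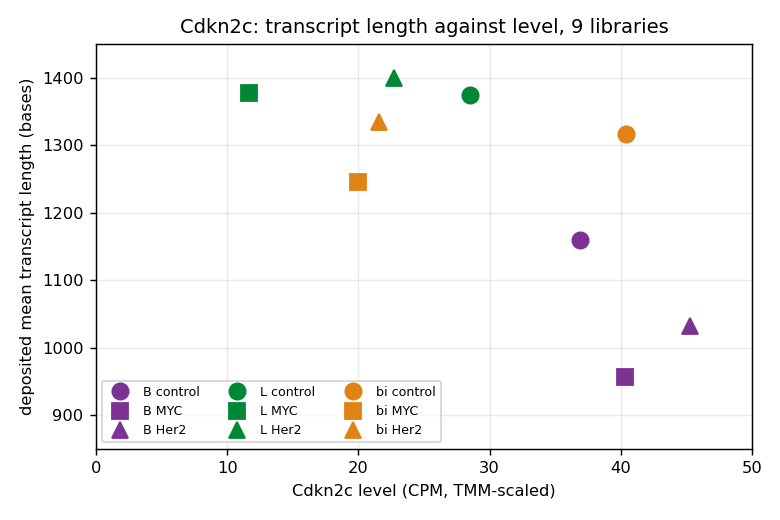
Deposited mean transcript length of Cdkn2c in bases (y axis, which does not start at 0) against its level in TMM-scaled CPM (x axis), 1 point per library, coloured by population with the arm as marker. The B libraries lie at 956.3 to 1159 bases, bi at 1246 to 1334 and L at 1375 to 1399, without overlap.

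The Cdkn2c transcripts also differed in deposited mean length, which Salmon weights by the abundance of each transcript. It was 1159, 956.3 and 1032 bases in B (control, MYC, Her2), 1375, 1378 and 1399 in L, and 1316, 1246 and 1334 in bi. The 3 populations thus stood apart, shortest in B. Among 14163 genes whose length varied by over 1%, 1.14% had all 3 populations apart. The annotation used here lists 2 coding transcripts, of 1106 bases from the downstream start and 2471 bases from the upstream start, the promoters of which are printed above. A mean of 956.3 lies below both, so the authors' annotation must hold others and the lengths cannot be assigned to either start. This gene was singled out after its values were seen and no test was made.

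Cdkn2d (chr9:21288410-21291407, minus strand) encodes p19Ink4d and was the least abundant INK4 gene by TPM. It was 7.55, 8.69 and 8.93 CPM in B (control, MYC, Her2), 11.2, 6.14 and 13.5 in L, and 11.3, 8.95 and 7.54 in bi. The groups overlapped in every comparison, and the smallest of its adjusted p-values was 0.619 (L against B, 0.25, SE 0.29). Of the 10 genes it had the largest part of its variance in neither population nor arm.

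**Figure D5:**
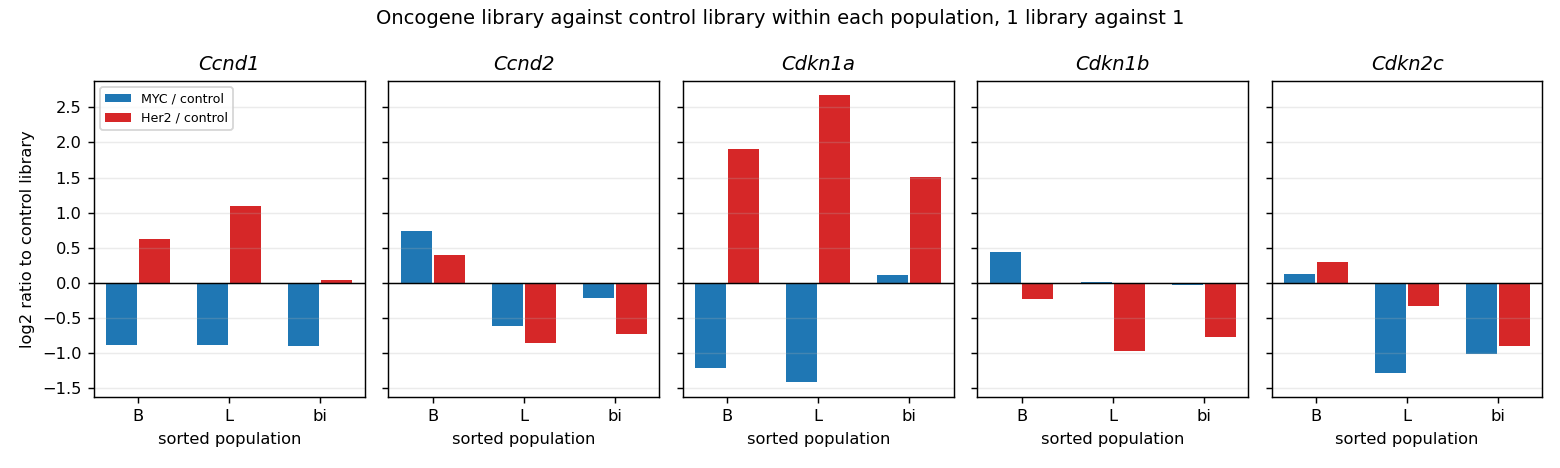
Log2 ratio of the MYC (blue) and Her2 (red) library to the control library of the same population, for 5 members, each bar 1 library against 1 with no error. Ccnd1 lies below 0 with MYC by a like amount in all 3 populations, Cdkn1a lies above 0 with Her2 in all 3, and Ccnd2 and Cdkn2c lie above 0 in B and below 0 in L and bi.

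The partners of D cyclins and inhibitors in the CDK4/6, retinoblastoma and E2F pathway were also counted (23 genes, all tested). With MYC against control 1 was called (0.365% of all genes), Ccne1 (cyclin E1), at 7.69 against 20.2 CPM (-1.34, SE 0.20, edgeR adjusted p = 0.0331), and the median of the list was -0.45 (0.03 over all genes). With Her2 none was called (0.021% of all genes), and Ccna2 (cyclin A2), which had the smallest p, was at -0.83 (SE 0.25, edgeR adjusted p = 0.287). Between MYC and Her2 0 were higher and 7 lower (2.44% and 2.13% of all genes), with a list median of -0.35 against 0.02. Examples are E2f1 (-1.43, SE 0.25, adjusted p = 0.0152) and Ccne2 (-1.24, SE 0.28, adjusted p = 0.0388).

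Between L and B 5 of the 23 partners were higher and 2 lower, where 11.5% and 9.26% of all genes were, with a list median of 0.08 against 0.04 over all genes. Ccna2 was higher by 1.99 (SE 0.25, adjusted p = 0.000514) and Cks1b, a cofactor of p27 degradation, by 0.77 (SE 0.19, adjusted p = 0.0183). The genes for the pocket proteins Rb1 (-0.70, SE 0.19, adjusted p = 0.0285) and Rbl2 (-0.75, SE 0.19, adjusted p = 0.0179) were lower. Between bi and B 3 were higher (7.88% of all genes), among them Ccna2 (1.68) and Ccne1 (0.86), and Rbl2 was lower (-0.68, 5.11% of all genes). Between bi and L none was called (0.751% of all genes).

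Replication and mitosis genes, 18 in number and all tested, mark cells in cycle. With MYC against control 6 were lower and 0 higher, where 0.365% of all genes were called, with a median of -1.1 against 0.03 over all genes. Mcm3, a subunit of the replicative helicase, was at 79.3 against 224 CPM (-1.45, SE 0.19, edgeR adjusted p = 0.023) and Rrm2, of ribonucleotide reductase, at 63.0 against 177 CPM (-1.38, SE 0.23, adjusted p = 0.0466). Against Her2, 9 were lower with MYC (2.13% of all genes), with a median of -0.72. With Her2 against control none was called (0.021% of all genes), with a median of -0.29 and Tyms at -0.53 (SE 0.18, edgeR adjusted p = 0.375). All 18 had values below 0 with MYC against control and 17 of the 18 against Her2, as Ccnd1 did. In Her2 against control 17 of the 18 were below 0 as well, whereas Ccnd1 was above 0 (0.61, not called).

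Between L and B 10 of the 18 were higher and 0 lower (11.5% and 9.26% of all genes), with a median of 0.73 against 0.04, and the 8 that did not pass include Mcm7, which had a value of -0.28. Plk1, a mitotic kinase, was higher by 1.67 (SE 0.36, adjusted p = 0.00884) and Mki67 by 1.26 (SE 0.22, adjusted p = 0.00332). In bi against B 10 were higher as well and 0 lower (7.88% and 5.11% of all genes, median 0.84), with Plk1 at 1.53 and Tk1, thymidine kinase, at 1.43. For bi against L none was called (0.751% of all genes). In the same comparison of L with B, Ccnd1 and 2 CIP/KIP inhibitors were higher and 1 CIP/KIP inhibitor and 3 INK4 genes lower.

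The p53 axis (16 genes) was read beside Cdkn1a and Cdkn2a. Whether the p53 of these cells is intact was not examined, so these levels are not a measure of its activity. Against control, 0 of 16 were called with MYC (0.365% of all genes) or with Her2 (0.021% of all genes). The medians were 0.06 and 0.18, against 0.03 and -0.01 over all genes, with 9 and 13 of the 16 above 0. The smallest p with MYC was that of Trp53inp1, at 57.7 against 16.7 CPM (1.78, SE 0.40, edgeR adjusted p = 0.0825). With Her2 it was that of Mdm2, the feedback inhibitor of p53, at 79.3 against 57.8 CPM (0.45, SE 0.17, edgeR adjusted p = 0.463). Between MYC and Her2 1 of the 16 was called (4.57% of all genes), Pmaip1, which encodes NOXA (-1.52, SE 0.32, adjusted p = 0.0312). In this comparison 11 of the 16 were below 0, as Cdkn1a was, and 5 above 0. Among those above 0 were Trp53inp1 (1.48), Fas (1.24) and Btg2 (0.865), which were not called. Between L and B 2 of 16 were lower, near the 9.26% of all genes, namely Fas (-2.59, SE 0.34, edgeR adjusted p = 0.000627) and Phlda3 (-1.0, SE 0.20, adjusted p = 0.00572). None was higher, where 11.5% of all genes were. The list median was -0.29.

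Known regulators of the Cdkn2a and Cdkn2b locus (15 genes, Polycomb proteins and transcription factors) gave no call in any comparison of arms. Of all genes, 0.365% were called in MYC against control, 0.021% in Her2 against control and 4.57% in MYC against Her2. Between L and B 2 of the 15 were higher (11.5% of all genes), Id1 (1.78, SE 0.48, adjusted p = 0.0253) and the Polycomb gene Cbx8 (1.03, SE 0.18, adjusted p = 0.00282). Lower were 3 (9.26% of all genes), among them Ets2 (-1.51, SE 0.21, adjusted p = 0.000911) and the Polycomb gene Ring1 (-1.04, SE 0.23, adjusted p = 0.00922). Between bi and B, Id1 (2.46) and Cbx8 (1.13) were higher and Ets2 (-1.04) lower (7.88% and 5.11% of all genes), and between bi and L none was called (0.751% of all genes). ID proteins are known to hold back and ETS proteins to activate transcription of p16Ink4a. Ets1, also on the list, overlapped between L (77.8 to 134 CPM) and B (65.3 to 86.6 CPM). The part of these regulators in the Cdkn2a count, which sums p16Ink4a and p19Arf, was not tested.

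The genes most like each member over the 9 libraries were sought among 10155 genes of at least 5 CPM, without predicted genes, clones and pseudogenes, by Pearson correlation of log2 CPM. This is a description over 9 points that share populations and arms. Ccnd1 was closest to Ifrd1 (r = 0.993), then Ippk and Entr1 (both 0.98), all highest in L Her2 and lowest in B MYC. Cdkn1a was closest to Acer3 (0.972), Slco4a1 (0.965) and Lancl3 (0.958), likewise highest in L Her2. For Cdkn1b they were Il1rl2 (0.97), Glul (0.967) and Nfib (0.956), all highest in L control and lowest in B Her2. For Ccnd2 they were Miga2 (0.958), Ift74 and Wdr35 (both 0.957).

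Among the INK4 genes, Cdkn2a was closest to Kdelr1 (0.978), Ext2 (0.971) and Txndc17 (0.968), all highest in B MYC. Among the genes most like Cdkn2b were Slc35g1 (0.955) and Mxra8 (0.953), both lowest in L control. Cdkn2c was closest to Ddx21 (0.982), Denr (0.98) and Mfsd10 (0.978), and Cdkn2d to Eif1b (0.97), Sart1 (0.967) and Fdx1 (0.961), with the lowest level of all 6 in L MYC. No gene was among the closest to more than 1 member. Ccnd3 and Cdkn1c were not compared, since the rule asked for a mean of at least 5 CPM, which Cdkn1c did not reach, and a highest library at least 2 times the lowest, which Ccnd3 missed before rounding.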

How the data were processed

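Stranded total-RNA libraries were made with a ribosomal-RNA depletion kit from RNA isolated with either of 2 kits, per the labels' protocols, which do not say which library had which kit. The authors quantified reads with Salmon 0.9.1 on mm10, per the submitters' processing notes. The estimated count (expected count) per gene that this made was deposited by the authors as Salmon's number of reads, not normalized, per the file headers. They also deposited a TPM value and a length and effective length in bases. The annotation release and strand setting are not given in the sources used here. Of 54281 identifiers, 53544 matched a symbol with their version, 563 without it and 174 not at all.

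Estimated counts were rounded, genes were kept by filterByExpr with the arm as group (at least 10 reads, and 15 in total), and libraries were scaled by TMM. An additive model of population and arm was fitted to all 9 libraries with 4 residual degrees of freedom in edgeR 4.0.16 (R 4.3.3), whose two-sided quasi-likelihood test gave p-values, adjusted by Benjamini-Hochberg over 23834 genes. Noise between libraries and any interaction of population with arm both lie in the residual. The SE is the log2 fold change divided by the square root of F. Ratios of single libraries use CPM with a prior count of 2 and have no test. Alternatives were DESeq2 1.42.0, limma 3.58.1 on log2(TPM + 0.5), other size factors, no filter, only the 6 libraries compared, and leaving out each library.

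The members and gene lists were chosen with earlier results of these data known. All 10 members are named, and of each list up to 2 called genes with the largest difference each way, or the gene with the smallest p where none was called. Up to 3 genes most like each member are named, and 1 of them is not reported here.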

Additional observations from a re-analysis of the deposited data

Results flagged for a closer look

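In 3 cases a member moved in opposite directions, by at least 0.5 on the log2 scale each way, in the same comparison of single libraries. Each value is 1 library against 1, and the difference between the values was not tested. For Ccnd2 the log2 ratio of MYC to control was 0.73 in B and -0.62 in L. For Cdkn1a the ratio of bi to L was 1.35 in the MYC arm and -1.34 in the Her2 arm, with -0.18 in control. For Cdkn2d that ratio was 0.54 with MYC and -0.84 with Her2.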

How the results depend on the processing

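Of the 12 calls, 5 held in all 14 alternatives (Ccnd1 and Cdkn1a in MYC against Her2, and Ccnd1, Cdkn1a and Cdkn1c in L against B) and 7 were lost in at least 1, while no called value changed sign. For MYC against control 1 member was called in place of 0 without a filter, with DESeq2, with limma and on the 6 libraries alone, and 0 with any library left out. For Her2 against control it was 1 in place of 0 without a filter, with DESeq2 and on the 6 libraries alone, and 0 to 1 with a library left out. With a library left out L against B gave 4 to 8 members in place of 7 (4 without B MYC, L control or L MYC), and bi against B 0 to 3 in place of 2 (0 without B MYC or B Her2). The cause was not tested.

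The number of all genes called moved more. MYC against control gave 87 genes, and 54 with other size factors, 944 without a filter, 966 with DESeq2, 610 with limma, 680 on 6 libraries and 6 to 492 with a library left out. Her2 against control gave 5, and 32, 619, 509, 0, 196 and 0 to 89 in the same order. For MYC against Her2 it was 1089, with 2089 without a filter, 1887 with DESeq2, 650 with limma and 217 to 1499 with a library left out. For L against B it was 4953 (3324 to 5328 with a library left out), for bi against B 3094 (1843 to 3276), and for bi against L 179, with 698 without a filter, 663 with DESeq2, 25 with limma and 33 to 241 with a library left out. The share of calls that were higher moved too. With other size factors it went from 60% of 5 calls to 75% of 32 in Her2 against control. With limma on TPM it went from 27.6% to 4.92% in MYC against control, from 53.4% to 27.8% in MYC against Her2 and from 65.9% to 76% in bi against L. With DESeq2 it was 37.7% in MYC against control, 49.1% in Her2 against control and 52.6% in bi against L, where it was 97% of 33 calls without bi Her2. No paired analysis by replicate number was possible because the labels carry none; population, or arm, was already a block in every fit.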
